A study of Homo sapiens with 9 samples.

Results

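Cytotoxic lymphocytes kill by releasing granules that hold pore-forming proteins and proteases. Perforin opens the membrane of the target cell, granzymes enter and cleave proteins inside it, and granulysin damages the membranes of microbes and cells. Serglycin is the proteoglycan on which these cargoes are packed. Natural killer (NK) cells and cytotoxic T cells are the usual source of these proteins, whereas macrophages use a perforin-like protein, perforin-2, against bacteria taken up by the cell. The genes described here are 9 such effector genes measured in a B cell line: the pore formers GNLY, PRF1 and MPEG1, the granzymes GZMB and GZMM, the granule proteins SRGN and NKG7, the receptor subunit KLRD1 and the cytokine IL32. They were 9 of 59050 genes in the deposited count table and were chosen by name after their differences between the culture conditions were known. Their fold changes are therefore a description, with no p-value, and the number past the threshold of the fit is given below only beside the share over all genes.

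The cells were MEC1, an established human line from chronic lymphocytic leukemia (CLL), a malignancy of mature B lymphocytes. RNA was sequenced from 9 samples, 3 in each of 3 groups: cells in conventional flat culture (2D, with no time given), cells 3D bioprinted in a hydrogel scaffold and collected at day 7 (3D_7d), and scaffolds collected at day 14 (3D_14d). All groups were the same line, and no drug or other agent is given for any of them. Every sample title begins with MECPGK, and the labels do not explain PGK, so whether the line was modified is not known. The comparison asks how the transcriptome differs between flat culture and bioprinted scaffolds over time. Scaffold RNA went through TRIzol and a DNase step before a second extraction on columns. The 2D cells went onto columns directly, with a DNase wash there. Culture and extraction therefore cannot be told apart in comparisons with 2D.

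Library totals ranged from 54662799 to 85968686 counts, and the 9 genes together took 0.201% to 0.340% of them. Replicate 1 of 3D_14d stood apart, with a chi-square per gene of 253 and 305 against the other day 14 samples, which differed from each other by 155, against 22.5 to 81.9 between replicates in the other groups. B cell identity was clear, as 9 of 10 B cell markers passed the filter on low counts, and their summed level in CPM (counts scaled to a common library size) was 3318 to 3355 in 2D, 3812 to 4409 in 3D_7d and 4499 to 5138 in 3D_14d. The exception was CD5, at 0.361 CPM in 2D and lower in 3D, although CD5 usually marks CLL cells. Of 19 T and NK cell markers 5 passed. These were the T cell receptor constant genes TRAC at 332, 472 and 649 CPM, TRBC2 at 120, 191 and 230 CPM and TRBC1 at 16.3, 27.0 and 31.1 CPM, the NK receptor gene NCR3 at 60.7, 30.9 and 80.3 CPM, and CD7 at 3.43, 0.177 and 1.02 CPM. The sum over the list ran from 491 to 580, 698 to 742 and 794 to 1167 CPM in the 3 groups. The other 14 did not pass, and CD3D, CD3G, CD8B and NCR1 never exceeded 3 counts in a library. Of 12 myeloid markers 2 passed, led by MS4A7 at 11.6, 17.1 and 21.7 CPM, and the sum ran from 13.2 to 14.6, 15.5 to 25.1 and 24.8 to 28.2 CPM. CD68 had 0 counts in every library, but 100% of its annotated exonic bases overlap other genes, so this 0 is no measurement of it, and LYZ never exceeded 2 counts. In bulk RNA, fewer cells with a transcript and less of it in each cell cannot be told apart.

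Windows upstream of 3 genes are shown because their products work together in one granule while their levels lay far apart in 2D. GNLY is on chromosome 2 at 85694291 to 85698854 (plus strand), PRF1 on chromosome 10 at 70597348 to 70602759 (minus strand) and GZMB on chromosome 14 at 24630954 to 24634267 (minus strand), in the GRCh38 coordinates of the count table. The sequences are from RefSeq (GRCh38.p14), are written 5′ to 3′ on the strand of the gene, and end at the last base before the annotated gene. Capitals mark matches to any of 6 short motifs searched on both strands: T-box (GGTGTGA), RUNX (TGTGGT), ETS (GGAAGT), AP-1 (TGANTCA), CRE (TGACGTCA) and STAT (TTCNNNGAA). No match overlapped a match of another motif in these windows.
GNLY, chr2:85694108-85694290: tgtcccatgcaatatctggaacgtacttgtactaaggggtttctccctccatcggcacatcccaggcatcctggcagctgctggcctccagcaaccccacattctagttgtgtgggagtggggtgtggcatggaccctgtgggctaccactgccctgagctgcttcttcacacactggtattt
PRF1, chr10:70602760-70602991: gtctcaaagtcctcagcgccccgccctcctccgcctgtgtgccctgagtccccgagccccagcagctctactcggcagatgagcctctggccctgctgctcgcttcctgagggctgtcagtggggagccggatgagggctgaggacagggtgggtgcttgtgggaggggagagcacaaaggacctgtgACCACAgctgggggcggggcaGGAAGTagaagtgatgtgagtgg
GZMB, chr14:24634268-24634440: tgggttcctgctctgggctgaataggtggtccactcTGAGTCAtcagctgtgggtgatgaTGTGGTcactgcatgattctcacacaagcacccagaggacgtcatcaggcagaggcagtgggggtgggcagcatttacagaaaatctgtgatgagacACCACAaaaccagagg
The PRF1 window held 1 RUNX match on the opposite strand and 1 ETS match on the gene's strand. The GZMB window held 1 AP-1 match and 2 RUNX matches, 1 on each strand, and the GNLY bases shown held none. The searched windows were the full 250 bases before the RefSeq start, of which the printed 183, 232 and 173 bases lie outside the annotated gene. The full GNLY window held 1 RUNX match, 62 bases before the start, in a part that the annotation counts as exon. Over 35116 promoters, the same 250 bases held RUNX in 11%, ETS in 19.5%, AP-1 in 6.57%, STAT in 6.57%, T-box in 2.76% and CRE in 1.65%. A match is a description of letters and not evidence of binding. The table held promoters for 5 of the 9 genes and none for MPEG1, GZMM, SRGN and KLRD1.

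The genes differed widely in abundance within each culture. Levels between genes are compared per length, as CPM divided by the kilobases of exon (RPKM). In 2D the order was SRGN at 1099 ± 105 RPKM (mean ± SD, n = 3, here and below), PRF1 at 311 ± 13.3, IL32 at 292 ± 36.5, GZMM at 71.5 ± 12.0, GNLY at 12.2 ± 1.46, NKG7 at 1.80 ± 0.146, MPEG1 at 0.667 ± 0.0319, KLRD1 at 0.0351 ± 0.0178 and GZMB at 0.00826 ± 0.0143. Perforin and the packing proteoglycan were thus abundant in flat culture, while granzyme B was near the limit of detection. Neighbours whose samples overlapped in 2D were PRF1 with IL32 and KLRD1 with GZMB.

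In 3D_7d, GNLY stood above GZMM, at 103 ± 19.4 against 27.5 ± 4.34 RPKM, and MPEG1 stood above NKG7, at 10.4 ± 1.23 against 0.459 ± 0.501 RPKM. In 3D_14d, PRF1 at 427 ± 70.3, IL32 at 319 ± 74.0 and GNLY at 264 ± 96.4 RPKM followed SRGN at 1085 ± 233, and each of these 3 overlapped its neighbour. NKG7, GZMB and KLRD1 were the lowest 3 in both scaffold groups and overlapped their neighbours. The exonic length of KLRD1 is 15721 bases over all annotated transcripts, against 921 to 4442 for the other 8 genes, and this length lowers its RPKM.

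**Figure D1:**
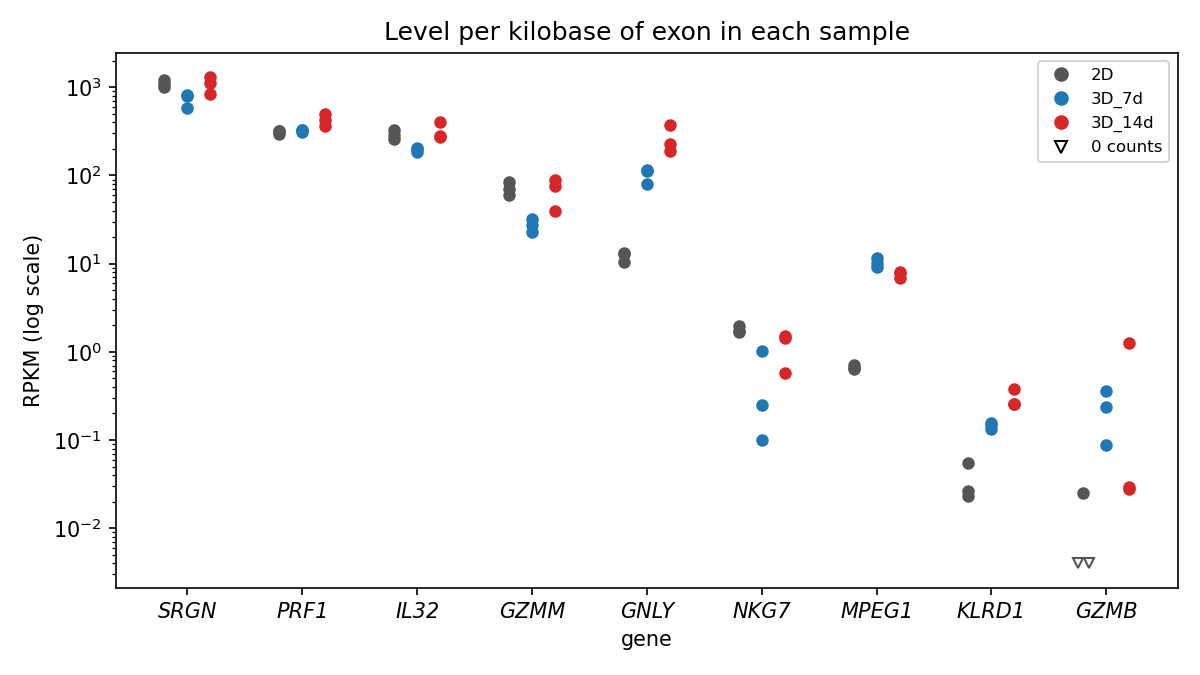
Level of each of the 9 genes in every sample, in RPKM on a log axis, with genes ordered by their 2D mean and colours for the groups. Open triangles at the bottom mark the 2D samples of GZMB with 0 counts and have no place on the scale, SRGN is the highest in all groups, and GNLY moves from 12.2 RPKM in 2D to 264 in 3D_14d.

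Of the 9 genes, 8 passed the filter of more than 1 CPM in at least 3 samples, and GZMB did not. KLRD1 passed through the scaffold samples alone (0 of 3 samples above 1 CPM in 2D), so that a difference for it was built into passing. NKG7 passed only with its 2D samples (3 above 1 CPM in 2D, 0 in 3D_7d and 2 in 3D_14d), so that a lower scaffold level was in part built in. The counts, medians and overlaps below include both. KLRD1 is among those called higher than 2D at both days, and NKG7 among those called lower at day 7. At an adjusted p of at most 0.05 in edgeR's quasi-likelihood test, 3 of 8 were higher in 3D_7d than in 2D, where 22.2% of 13463 tested genes were, and 4 were lower, where 21.2% of genes were. In 3D_14d against 2D, 4 were higher (19.0% of all genes) and 0 were lower (17.2% of all genes), as they also were at an unadjusted p under 0.05 and in DESeq2. Between 3D_14d and 3D_7d, 4 were higher at day 14 (14.5% of all genes) and 1 was lower (13.6% of all genes). Since the genes were chosen on these contrasts, nothing is read from these counts. The median log2 fold change of the 8 was -0.25, 0.29 and 0.86 in the 3 contrasts, beside 0.00 (-0.0039), 0.02 and -0.0012 over all tested genes. The groups did not overlap for 7, 5 and 7 of the 8, where 64.6%, 49.7% and 39.3% of all tested genes did not overlap, and nothing is read from this either. The counts moved with single libraries and tools. The 4 lower at day 7 became 1 without 2D replicate 1 and 2 without 3D_7d replicate 1. The 1 lower between the days became 0 when any library but 3D_14d replicate 3 was left out. The 4 higher between the days became 6 in DESeq2, which added PRF1 and KLRD1. Of 16 alternative settings, 12 lost the call of MPEG1 between the days and 12 that of SRGN. The call of PRF1 at day 14 was lost in 7. At day 7, the call of NKG7 was lost in 5, and those of SRGN and IL32 in 2 each.

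**Figure D2:**
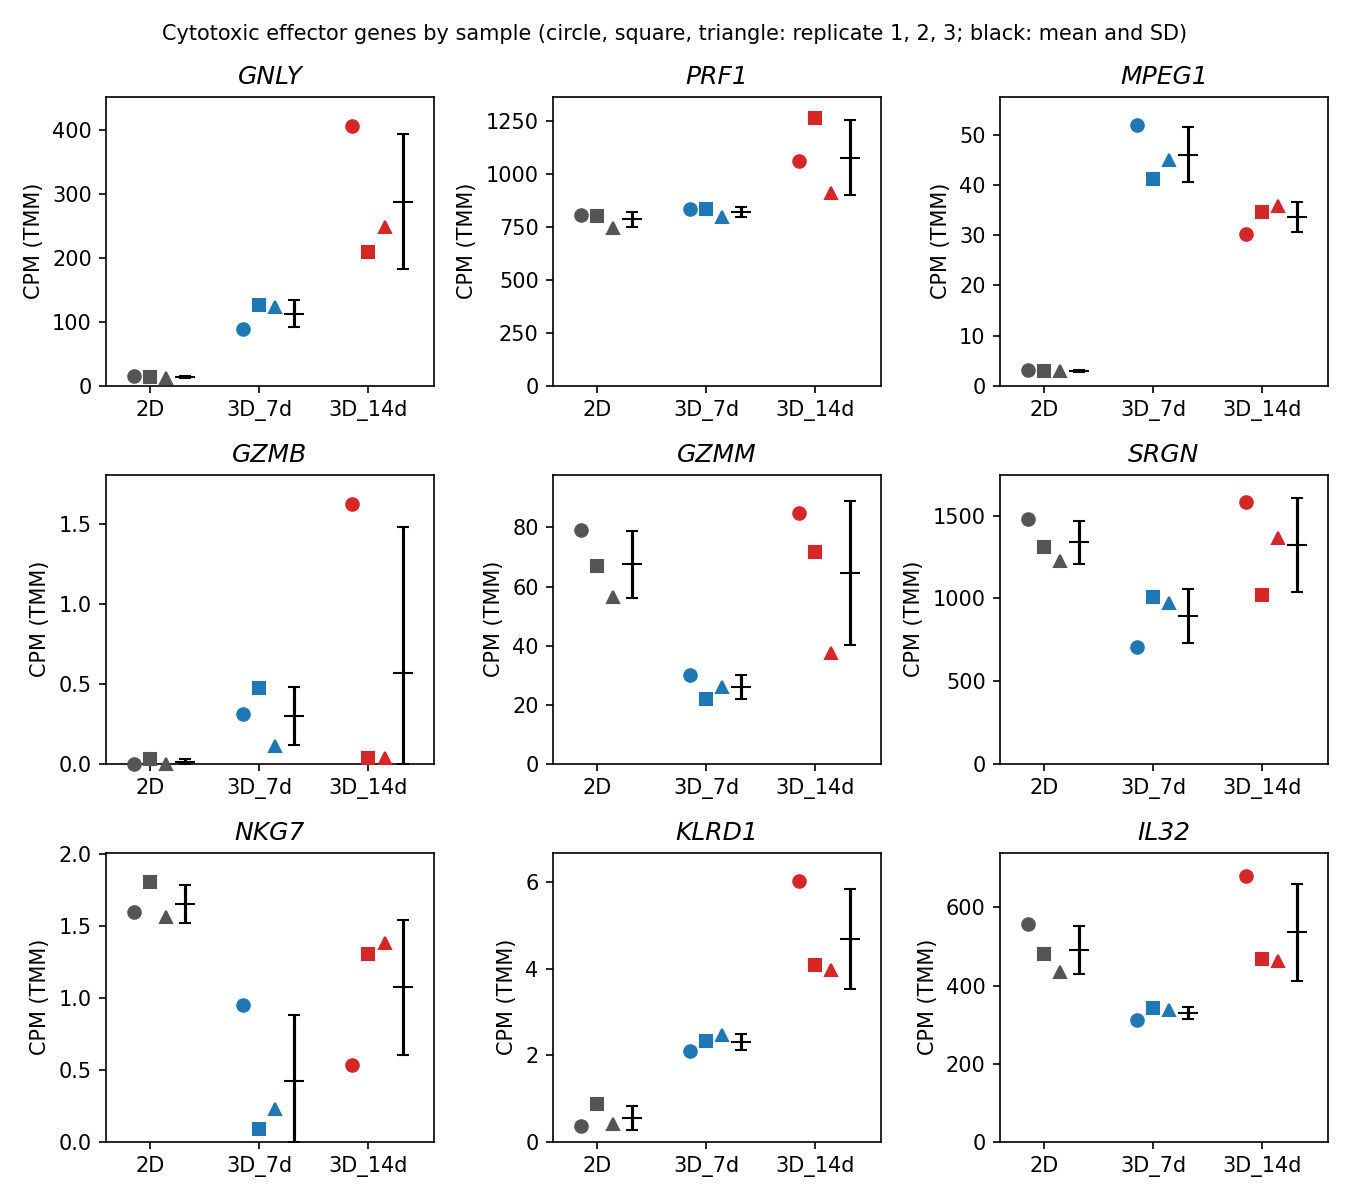
Normalized level (CPM after TMM scaling, linear axes from 0) of each gene in the 9 samples, with black bars for the mean and SD of 3 replicates. GNLY, MPEG1 and KLRD1 lie above 2D in all 6 scaffold samples, GZMM, SRGN and IL32 dip at day 7, and the day 14 mean of GZMB comes from replicate 1.

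Granulysin, encoded by GNLY, showed the widest span of the pore formers. Its level was 14.4, 14.1 and 11.5 CPM in 2D, 88.2, 126 and 124 CPM in 3D_7d, and 407, 209 and 248 CPM in 3D_14d. Each scaffold sample exceeded each 2D sample, each day 14 sample exceeded each day 7 sample, and the highest was 3D_14d replicate 1. The log2 fold change was 3.08 (SE 0.25) at day 7 and 4.43 (SE 0.26) at day 14 against 2D, and 1.35 (SE 0.23) between the days. The mean was 8.45-fold higher at day 7 and 21.6-fold higher at day 14 than in 2D. Without 3D_14d replicate 1, the log2 fold change at day 14 was 4.10.

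Perforin-2, encoded by MPEG1, was the other pore former that was low in 2D. It is encoded by 1 exon on chromosome 11 at 59208510 to 59212951 (minus strand), of which 1.78% overlaps DTX4. Its level was 3.12, 2.87 and 2.88 CPM in 2D, 51.9, 41.1 and 45.0 CPM in 3D_7d, and 30.2, 34.6 and 35.9 CPM in 3D_14d. Day 7 samples were the highest, day 14 samples lay below all of them, and 2D samples lay far below both. The log2 fold change was 3.96 (SE 0.17) at day 7 and 3.50 (SE 0.17) at day 14, and -0.46 (SE 0.15) from day 7 to day 14. With any of the 9 libraries but 3D_14d replicate 3 left out, the last value was -0.36 to -0.52 and was not past the threshold. The summed myeloid markers, whose ranges are given above, were also higher in 3D, but 10 of the 12 were below 1 CPM in every sample. Of the 2 that passed, MS4A7 at 11.6, 17.1 and 21.7 CPM made up most of the sum, so that the rise of the sum was mainly that of this gene. ITGAM stood at 1.40 CPM in 2D, 0.774 in 3D_7d and 4.20 in 3D_14d. Any part of myeloid cells in the level of MPEG1 was not tested.

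Perforin itself, PRF1, was high in every sample. Its level was 804, 802 and 746 CPM in 2D, 832, 832 and 793 CPM in 3D_7d, and 1061, 1261 and 908 CPM in 3D_14d. The 2D and 3D_7d samples overlapped, and all day 14 samples lay above them. The log2 fold change was 0.06 (SE 0.14) at day 7, 0.46 (SE 0.14) at day 14 and 0.39 (SE 0.14) between the days. At day 14, leaving out 2D replicate 1, 2 or 3 gave 0.45, 0.44 and 0.38, and leaving out 3D_14d replicate 2 gave 0.33. None of these was past the threshold. Scaling by total counts alone gave -0.093 at day 7 and 0.25 at day 14, a setting that shifted the median of all genes by -0.16 and -0.21. Between the days, the value was 0.42 without 3D_14d replicate 1 and 0.51 without replicate 3.

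Granzyme B, the granule protease that triggers death in target cells, was almost absent. GZMB had 0, 3 and 0 counts in 2D, 18, 26 and 6 in 3D_7d, and 88, 2 and 2 in 3D_14d. In counts, all 3 day 7 libraries and 1 day 14 library exceeded every 2D library. The pooled count at day 7 was 50 against 3 in 2D, a ratio of 23.1 after scaling for depth (exact 95% interval 7.48 to 116). At day 14 the ratio was 43.4 (14.4 to 214) with all libraries and 2.83 (0.478 to 19.3) without replicate 1, where 4 counts stood against 3. These intervals cover counting error only and not the spread between samples.

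Granzyme M, a granzyme best known from NK cells, had a different profile. GZMM, on chromosome 19 at 544034 to 549924 (plus strand), stood at 79.3, 66.9 and 56.6 CPM in 2D, 30.1, 21.9 and 25.9 CPM in 3D_7d, and 84.7, 71.7 and 37.6 CPM in 3D_14d. Day 7 samples were below all others, and the day 14 samples spread across the 2D range. In log2 fold change this was -1.38 (SE 0.26) at day 7, -0.06 (SE 0.25) at day 14 and 1.32 (SE 0.26) between the days. The day 14 value against 2D was 0.04 without 2D replicate 1 and 0.21 without 3D_14d replicate 3.

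Serglycin, SRGN, was the most abundant transcript of the 9 genes. It lies on chromosome 10 at 69088103 to 69104805 (plus strand), and its level was 1477, 1311 and 1225 CPM in 2D, 704, 1007 and 969 CPM in 3D_7d, and 1580, 1018 and 1365 CPM in 3D_14d. Day 7 samples were the lowest, and 2D and day 14 samples overlapped. On the log2 scale the difference was -0.58 (SE 0.19) at day 7, -0.02 (SE 0.19) at day 14 and 0.56 (SE 0.19) between the days. The day 7 value was -0.54 without 2D replicate 1 and -0.46 without 3D_7d replicate 1, where its call was lost. With any library but 3D_14d replicate 2 left out, the difference between the days was 0.42 to 0.67 and was not past the threshold. At day 14 the value against 2D was 0.04 without 2D replicate 1 and 0.14 without 3D_14d replicate 2.

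NKG7, a membrane protein of cytotoxic granules, was scarce. It lies on chromosome 19 at 51371606 to 51372701 (minus strand), and its level was 1.59, 1.81 and 1.56 CPM in 2D, 0.949, 0.0911 and 0.228 CPM in 3D_7d, and 0.536, 1.31 and 1.38 CPM in 3D_14d. All scaffold samples lay below 2D, with a wide spread within each scaffold group, and the counts behind 3D_7d were 55, 5 and 12. The gene passed the filter only with its 2D samples, so that a lower scaffold level was in part built in. Against 2D, the log2 fold change was -1.96 (SE 0.67) at day 7, -0.62 (SE 0.64) at day 14 and 1.33 (SE 0.67) between the days. The day 7 value was -2.03, -1.94 and -2.06 without 2D replicate 1, 2 and 3, and -1.53 and -1.71 without 3D_7d replicate 2 and 3. None of these was past the threshold. The difference between the days was 2.74 without 3D_7d replicate 1.

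KLRD1 encodes CD94, which pairs with NKG2 chains to form a receptor on NK cells for HLA-E. The gene, on chromosome 12 at 10304446 to 10329608 (plus strand), had 0.362, 0.872 and 0.420 CPM in 2D, 2.10, 2.33 and 2.46 CPM in 3D_7d, and 6.02, 4.08 and 3.98 CPM in 3D_14d. The 3 groups did not overlap, although the highest count in a library was only 326. In log2 fold change this was 2.04 (SE 0.39) at day 7, 3.07 (SE 0.40) at day 14 and 1.03 (SE 0.37) between the days. The last of these was 1.04 without 2D replicate 2. The genes of the NKG2 family, KLRC1 to KLRC4, were below the filter, but 26.8%, 56.8% and 50.3% of the exonic bases of KLRC2, KLRC3 and KLRC4 overlap other genes, so their counts may understate them.

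IL32 encodes interleukin-32, a proinflammatory cytokine made by T and NK cells among others. On chromosome 16 at 3065297 to 3069819 (plus strand), with 7.66% of its exonic bases shared with RNU1-125P, it stood at 557, 481 and 435 CPM in 2D, 313, 341 and 337 CPM in 3D_7d, and 680, 467 and 462 CPM in 3D_14d. Day 7 samples were below all others, and 2D and day 14 overlapped. The log2 fold change was -0.57 (SE 0.17) at day 7, 0.13 (SE 0.17) at day 14 and 0.70 (SE 0.17) between the days. The day 7 value was -0.51 without 2D replicate 1 and -0.56 without 3D_7d replicate 1, where its call was lost. At day 14 the value was -0.075 without 3D_14d replicate 1 and -0.084 after scaling by total counts alone.

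**Figure D3:**
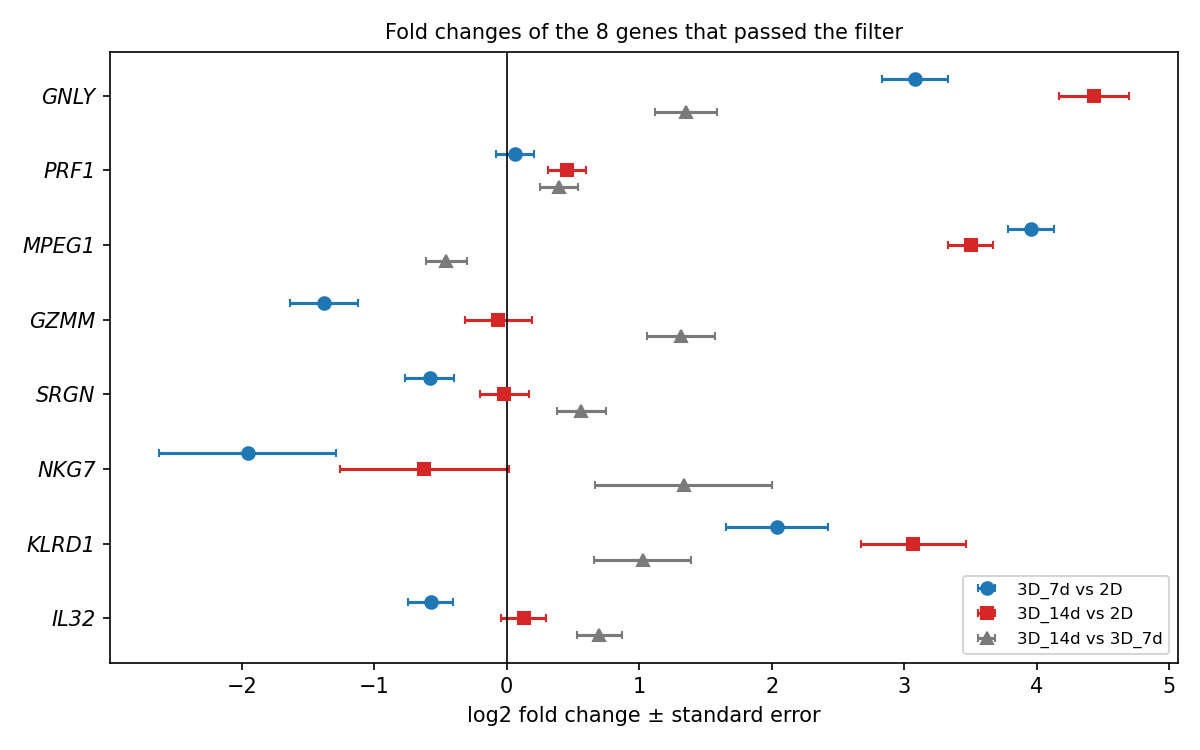
Log2 fold change with its standard error for the 8 genes that passed the filter, in each of the 3 contrasts. GNLY, MPEG1 and KLRD1 lie at 2.04 or more against 2D at both days, and GZMM, SRGN and IL32 are below 0 at day 7 and within 0.13 of 0 at day 14.

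The profiles fell into kinds that can be described by their correlation over the 9 samples, which share library depth and group differences. Pearson's r of log2 CPM was 0.974 for GNLY with KLRD1 and 0.901 for GNLY with MPEG1. It was 0.886 for GZMM with IL32 and 0.888 for SRGN with IL32, whereas GNLY and IL32 had 0.00766. Among all tested genes, the profile most like GNLY was IL10 (0.993), followed by S100A10 (0.993) and CLLU1OS (0.992). For KLRD1 these were AC084018.3 (0.982), IL10 (0.977) and CLLU1OS (0.976). For MPEG1 they were SERPINB8 (0.993), RNGTT (0.991) and RNF121 (0.990), and for PRF1 UBAC2 (0.980), PHF20 (0.960) and TMEM187 (0.959). GZMM was closest to ARHGDIB (0.986), UGT2B7 (0.979) and CHI3L2 (0.977), SRGN to COA6 (0.986), CNIH4 (0.978) and METTL5 (0.969), NKG7 to RFX3-AS1 (0.985), ADNP2 (0.959) and FABP3 (0.956), and IL32 to PILRA (0.992), SIGIRR (0.985) and OAZ1 (0.982).

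The other genes of the pathway were 64 genes in 6 lists, of which 47 passed the filter. In 3D_7d against 2D, 14 rose and 11 fell (29.8% and 23.4%, against 22.2% and 21.2% of all tested genes), with a median log2 fold change of -0.04. In 3D_14d against 2D, 17 rose and 7 fell (36.2% and 14.9%, against 19.0% and 17.2%), with a median of 0.28. From day 7 to day 14, 16 rose and 5 fell (34.0% and 10.6%, against 14.5% and 13.6%), with a median of 0.36. Nothing particular to the lists is read from these shares. The same shares over all tested genes stand beside the counts of each single list below, from which nothing is read either. GZMH and GZMK had 0 of 3 samples above 1 CPM in 2D, so that a difference was built into their passing, and without both the counts over 45 genes were 13 and 11, 15 and 7, and 14 and 5. Each adjusted p below comes from the same edgeR fit and was corrected over all 13463 tested genes by the Benjamini-Hochberg method. Replicates are not said to be separate cultures, so that these p-values measure the spread between samples, which may be technical.

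Among 10 measured granule proteases, their activators and inhibitors, 5 rose and 1 fell at day 7, 7 rose and 1 fell at day 14, and between the days 5 rose and 1 fell. Without GZMH and GZMK, 4 of 8 rose at day 7, 5 at day 14 and 3 between the days. With single libraries left out, the counts between the days were 3 to 6 higher and 0 to 2 lower, with 3 higher without 2D replicate 2, any 3D_7d replicate or 3D_14d replicate 1. GZMH encodes granzyme H and lies near GZMB on chromosome 14, at 24606480 to 24609699. Its counts were 10, 34 and 20 in 2D, 79, 112 and 125 in 3D_7d, and 1395, 878 and 702 in 3D_14d. The 3 groups did not overlap, and the gene passed the filter through the scaffold samples alone. Against 2D its log2 fold change was 2.82 (SE 0.38) at day 7 and 6.07 (SE 0.41) at day 14, given with no test for that reason. Between the days, when all scaffold samples were above the filter, it rose by 3.25 (SE 0.35, adjusted p = 0.000111). GZMB and GZMH are related in sequence, and how reads matching both were counted is not given in the sources used here.

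CST7 encodes cystatin F, an inhibitor of the cathepsins that activate granzymes. It was already named by earlier results of these data, so its fold changes are a description, given with no p-value. Its level was 54.0, 48.9 and 46.3 CPM in 2D, 2.87, 2.84 and 2.96 CPM in 3D_7d, and 29.9, 22.5 and 23.2 CPM in 3D_14d. It fell by 4.10 on the log2 scale at day 7 (SE 0.18). At day 14 it was still lower than in 2D, having dropped by 0.98 (SE 0.16), and it rose by 3.12 between the days (SE 0.18). CTSH, which encodes the protease cathepsin H, rose by 1.03 at day 7 (adjusted p = 0.000379), with a rise of 1.39 at day 14 (adjusted p = 7.97e-05). CALR, the calcium-binding chaperone calreticulin, rose by 1.10 at day 7 (adjusted p = 9.13e-05), with a rise of 0.59 at day 14 (adjusted p = 0.00625) that was lost with no filter (adjusted p = 0.0662). From day 7 to day 14 CALR fell by 0.51 (adjusted p = 0.0174), a call lost without 3D_7d replicate 2 (-0.42) or 3 (-0.47), with no filter (-0.56) and with only the 6 samples of the contrast (-0.499). Of its exonic bases, 14.2% overlap another gene.

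In the 14 measured genes of granule traffic and exocytosis, 5 rose and 2 fell at day 7, 3 rose and 1 fell at day 14, and between the days 2 rose and 1 fell. The 5 that rose at day 7 were LAMP1, AP3B1, UNC13D, STXBP2 and STX11, and the last 4 were lost in 3, 5, 8 and 7 of 16 alternatives. The count was 1 without 2D replicate 1 and with total counts, 2 without 2D replicate 3 or 3D_7d replicate 2 or 3, and 3 without 2D replicate 2 or 3D_7d replicate 1. At day 14 and between the days the counts that rose were 5 and 5 without 3D_14d replicate 1. SYTL1 encodes synaptotagmin-like protein 1, a partner of RAB27A. It fell by 2.89 at day 7 (adjusted p = 9.16e-06), from 75.9 ± 3.94 to 10.3 ± 4.43 CPM, and rose by 1.76 from there to day 14 (adjusted p = 0.000565). LAMP1, the lysosomal membrane protein exposed at the surface when granules are released, rose by 1.07 at day 7 (adjusted p = 0.000512), with a rise of 1.499 at day 14 (adjusted p = 8.42e-05). VAMP8, a membrane fusion protein, rose by 1.27 at day 14 (adjusted p = 0.000462) and by 0.94 between the days (adjusted p = 0.00486).

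Of the 5 measured genes of other pore-forming proteins, 0 rose and 4 fell at day 7, 0 rose and 3 fell at day 14, and between the days 1 rose and 0 fell. Each of these counts of 0 in edgeR was also 0 at an unadjusted p under 0.05 and in DESeq2. Beside these 5 genes, 22.2% of all tested genes rose and 21.2% fell at day 7, 19.0% and 17.2% at day 14, and 14.5% and 13.6% between the days. Nothing is read from counts over so few genes. GSDMD encodes gasdermin D, the pore former of pyroptosis, and stood at 93.9, 94.99 and 88.6 CPM in 2D, 31.7, 22.5 and 26.4 CPM in 3D_7d, and 35.1, 34.5 and 25.9 CPM in 3D_14d. All scaffold samples lay below all 2D samples, with a fall of 1.78 at day 7 (adjusted p = 1.44e-05), while the day 14 value was -1.54 (adjusted p = 4.99e-05). NINJ1, which ruptures the membrane of dying cells, fell by 1.01 at day 7 (adjusted p = 0.000165), while the day 14 value was -0.96 (adjusted p = 0.000316). GSDME, another gasdermin, fell by 0.83 at day 7 (adjusted p = 0.000638), while its day 14 value of -0.36 was not past the threshold. From day 7 to day 14 it rose by 0.47 (adjusted p = 0.0265), a call lost without 3D_7d replicate 2 (0.41), 3D_7d replicate 3 (0.51) or 3D_14d replicate 2 (0.35). Without 3D_14d replicate 3 the count between the days was 2.

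Of the 5 measured death ligands and effector cytokines, 2 rose and 0 fell at day 7, 2 rose and 1 fell at day 14, and between the days 1 rose and 1 fell. At an unadjusted p under 0.05, and in DESeq2, 1 gene was lower at day 7 where edgeR called 0. The 1 that fell at day 14, FASLG, was lost without 2D replicate 1 (-1.58), 2D replicate 3 (-1.499), 3D_14d replicate 2 (-1.40) or 3D_14d replicate 3 (-1.15). Between the days 2 fell without 3D_14d replicate 1. LTA, lymphotoxin alpha, rose by 1.73 at day 7 (adjusted p = 1.81e-05), with a rise of 1.55 at day 14 (adjusted p = 5.11e-05), from 200 ± 23.2 CPM in 2D to 661 ± 57.1 and 584 ± 129 CPM. TNF rose by 0.83 at day 7 (adjusted p = 0.000666) and fell by 0.70 from there to day 14 (adjusted p = 0.0042). TNFSF10, which encodes the death ligand TRAIL, rose by 0.69 at day 14 (adjusted p = 0.00878), a call lost without 2D replicate 3 (0.62), and by 1.13 between the days (adjusted p = 0.000941).

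The 5 measured killer lectin receptors, adaptors and the CD94 ligand bear on KLRD1. At day 7, 0 rose and 2 fell, at day 14, 3 rose and 0 fell, and between the days 4 rose and 0 fell. Each 0 here from edgeR was also 0 at an unadjusted p under 0.05 and in DESeq2. Over all tested genes, 22.2% rose and 21.2% fell at day 7, 19.0% and 17.2% at day 14, and 14.5% and 13.6% between the days, and nothing is read from the counts of this list. TYROBP encodes DAP12, the signalling adaptor of activating NK receptors, and stood at 39.2, 34.4 and 30.98 CPM in 2D, 18.3, 11.8 and 13.9 CPM in 3D_7d, and 138, 66.4 and 70.8 CPM in 3D_14d. It fell by 1.25 at day 7 (adjusted p = 0.00239), rose by 1.40 at day 14 (adjusted p = 0.00156), and rose by 2.64 between the days (adjusted p = 0.000108). HCST, the adaptor DAP10, fell by 1.45 at day 7 (adjusted p = 0.000598) and rose by 2.17 between the days (adjusted p = 0.000183), but 50.1% of its exonic bases overlap another gene. HLA-E, the ligand of CD94 receptors, rose by 0.55 at day 14 (adjusted p = 0.0176) and by 0.88 between the days (adjusted p = 0.00241). The day 14 call of HLA-E was lost without 2D replicate 1 (0.55), 2 (0.52) or 3 (0.48) or 3D_14d replicate 2 (0.42). The day 14 rise of HCST, 0.72 (adjusted p = 0.035), was lost in 7 of 16 alternatives, at 0.44 without 3D_14d replicate 1. The count that rose at day 14 was 1 without 2D replicate 2 or 3.

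Of 8 measured transcription factors of cytotoxic lymphocytes, 2 rose and 2 fell at day 7, 2 rose and 1 fell at day 14, and between the days 3 rose and 2 fell. EOMES rose by 1.49 at day 7 (adjusted p = 8.1e-05), from 10.7 ± 0.643 to 30.1 ± 5.21 CPM, and fell by 1.32 from there to day 14 (adjusted p = 0.000553). TBX21, which encodes T-bet, rose by 0.94 at day 14 (adjusted p = 0.002), from 269 ± 47.7 to 516 ± 50.1 CPM. Its rise of 0.68 between the days (adjusted p = 0.0165) was lost without 3D_7d replicate 2 (0.55) or 3 (0.69). ID2 fell by 0.90 at day 7 (adjusted p = 0.000258), and its day 14 value of -0.40 (adjusted p = 0.0365) was lost in 9 of 16 alternatives. Its rise of 0.51 between the days (adjusted p = 0.0151) was lost in 4, among them without 3D_7d replicate 2 (0.52) or 3 (0.47). PRDM1, which encodes the repressor Blimp-1, rose by 1.32 at day 7 (adjusted p = 0.000508), from 19.95 ± 2.69 to 49.8 ± 7.20 CPM, a call that no alternative lost. PRDM1 was also the other gene that rose at day 14, by 0.60 (adjusted p = 0.047). The day 14 call was lost in 12 of 16 alternatives, at 0.36 to 0.67 in the 8 that left out any library but 3D_14d replicate 1. The PRDM1 difference of -0.72 between the days (adjusted p = 0.0266) was lost in 5. NFIL3, a factor needed for NK cell development, fell by 1.41 at day 7 (adjusted p = 0.00153) and rose by 1.11 from there to day 14 (adjusted p = 0.0111). Its day 14 level was not above 2D, at 10.4 ± 3.77 against 12.8 ± 0.392 CPM, with a value of -0.29 that was not past the threshold.

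**Figure D4:**
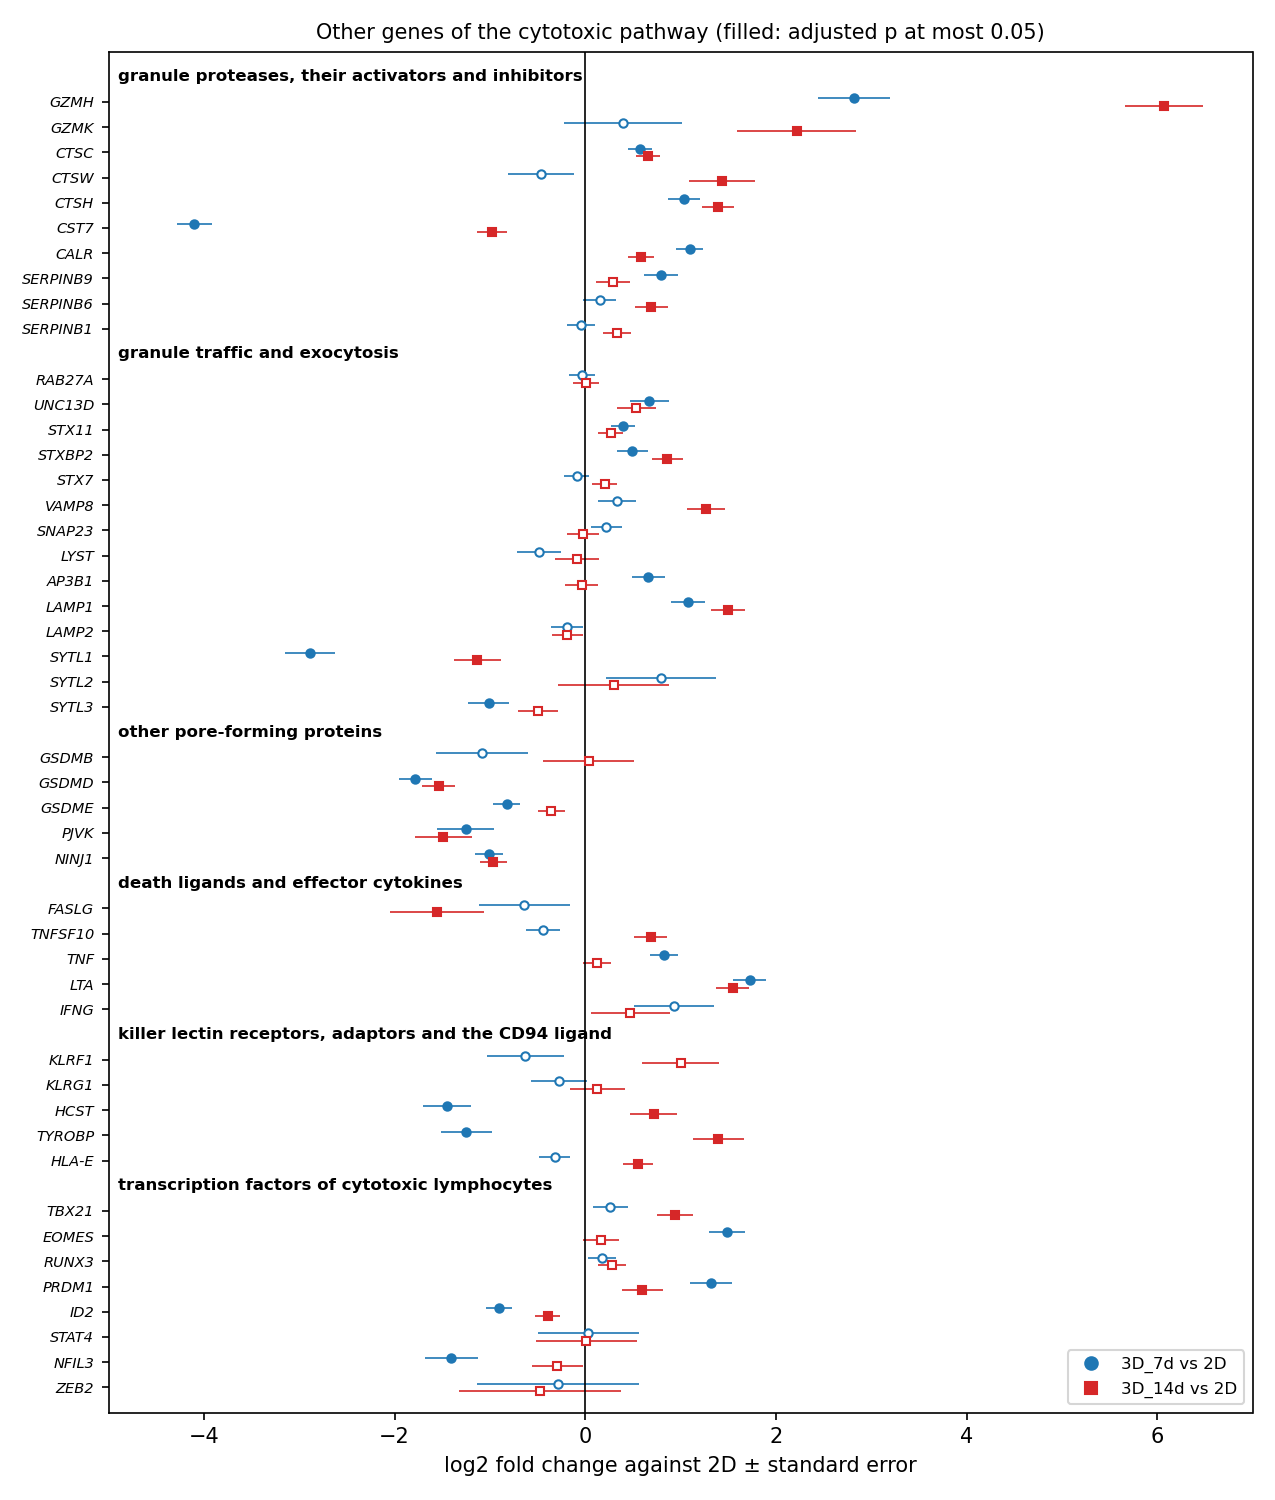
Log2 fold change against 2D, with its standard error, of the 47 other pathway genes that passed the filter, grouped by list, at day 7 (circles) and day 14 (squares), with filled symbols at an adjusted p of at most 0.05. GZMH, which like GZMK had no 2D sample above the filter, reaches 6.07 at day 14, CST7 is lowest at -4.10 at day 7, and GSDMD and NINJ1 lie below 0 at both days.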

How the data were processed

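The authors deposited 1 table of raw read counts per gene (59050 genes, 9 samples). Libraries were made with SMART-Seq v4 from low-input RNA and sequenced as single reads, and the submitters' processing notes name Trimmomatic 0.39, STAR 2.5.3a, featureCounts 1.6.4 and GRCh38, with a GENCODE annotation per the study's methods. Strand use and the treatment of multi-mapping reads are not given in the sources used here, so overlapping and related genes may share reads.

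Samples were grouped by culture method and time in the labels. Genes with more than 1 CPM in at least 3 samples (13463) were fitted together over all 9 samples with edgeR 4.0.16 (R 4.3.3) in the quasi-likelihood test after TMM scaling, with Benjamini-Hochberg adjustment and a threshold of 0.05. CPM and RPKM were computed from the counts and effective library sizes, and correlations from log2 CPM with a prior count of 2. The exact permutation test of 3 samples against 3 cannot go below p = 0.1 and was not used. The code was tested on simulated data. The 9 genes, the 6 pathway lists and the tests were chosen with earlier results of these data known. Named pathway genes were the 2 with the smallest p past the threshold in each list and contrast, plus CST7, with others named after their values were seen where a count turned on them, and for each effector gene the 3 tested genes with the highest correlation. Marker genes named were those at 0 in every sample and the highest of the T and NK cell list and of the myeloid list. The other markers were named after their values were seen, and the highest B cell marker is not named. The 16 alternatives were DESeq2 1.42.0 size factors, total counts, the DESeq2 test, 2 other filters, 6 samples only, a replicate block, and each library left out. Protein sequences were not used here.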

Additional observations from a re-analysis of the deposited data

Results flagged for a closer look

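The effect of 3D culture against 2D differed between day 7 and day 14 for 5 of the effector genes, computed as the contrast of the days in the same fit, in which the 2D samples cancel. This difference, on the log2 scale, was 1.35 for GNLY, -0.46 for MPEG1, 1.32 for GZMM, 0.56 for SRGN and 0.70 for IL32. It is a description, since these genes were chosen on it, and 28.1% of all tested genes were past the threshold in this contrast. The calls of MPEG1 and SRGN were each lost in 12 of 16 alternatives.

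The rule on the smallest p, with CST7 added, named 20 other pathway genes, and the same difference was past the threshold for 15 of them. Over all tested genes the share was 28.1%. The rule drew in part on this contrast, so the count was largely fixed by it and nothing is read from it. On the log2 scale the difference was 3.25 for GZMH, 3.12 for CST7, -0.51 for CALR, 0.94 for VAMP8 and 1.76 for SYTL1. It was 0.47 for GSDME, 1.13 for TNFSF10, -0.70 for TNF, 2.17 for HCST and 2.64 for TYROBP. It was 0.88 for HLA-E, 0.68 for TBX21, -1.32 for EOMES, 0.51 for ID2 and 1.11 for NFIL3. Calls of CALR, GSDME, TBX21 and ID2 were lost in 4, 5, 2 and 4 of 16 alternatives. Groups of 3 samples are too small to test single samples for standing apart.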

How the results depend on the processing

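Whether the replicate numbers pair the samples was not tested. Correlations of same-numbered samples' deviations were 0.185, 0.108 and 0.0931 between 2D and 3D_14d for replicates 1, 2 and 3. In the remaining same-numbered pairs they ran from -0.10 to -0.00522. Between samples that differed in both group and number they ran from -0.135 to 0.0807. Under the replicate block, the effector genes called lower from day 7 to day 14 went from 1 to 0, and the pathway genes called higher stayed at 16 in number. The same count of effector genes was 0 with no filter, with filterByExpr and with only the 6 samples of the contrast, and 0 to 1 with each library left out. Effector genes called lower at day 7 numbered 4, and 1 to 4 with each library left out, the 1 being without 2D replicate 1. From day 7 to day 14, pathway genes called higher numbered 10 to 20 and those called lower 2 to 6 with each library left out, against 16 and 5, with the lowest counts, 10 and 2, without 3D_7d replicate 2. Those called lower were 3 with only the 6 samples of the contrast. The cause was not tested.

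Directions that reversed were all of values not past the threshold. The median of the pathway genes at day 7 (-0.04) became 0.002 with filterByExpr, 0.12 without 2D replicate 2 and 0.0015 without 3D_7d replicate 3, with a range of -0.127 to 0.119 over the libraries left out. PRF1 at day 7 became -0.093 with total counts and -0.024 without 2D replicate 3, and ran to 0.063 with other libraries left out. At day 14, GZMM became 0.04 without 2D replicate 1 and 0.21 without 3D_14d replicate 3 (lowest -0.30), SRGN 0.04 without 2D replicate 1 and 0.14 without 3D_14d replicate 2 (lowest -0.16), and IL32 -0.084 with total counts and -0.075 without 3D_14d replicate 1 (highest 0.23). With total counts, higher calls over all genes made up 37.6% of calls at day 7 (51.1% in the reported fit) and 33.1% at day 14 (52.5%). Of 384 fold changes of the effector genes recomputed, 329 kept their direction and side of the threshold. Depth limited GZMB, NKG7 and KLRD1.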
